A study of Danio rerio with 6 samples.

Results

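Crystallins are the structural proteins of the eye lens, and their genes were looked up here in livers of zebrafish (Danio rerio) larvae at 7 days post fertilization. Members were the genes of the deposited count table whose symbol begins with cryaa, cryab, cryba, crybb or cryg. There were 19 of them among 21589 genes: 3 alpha, 6 beta A, 5 beta B and 5 gamma crystallins. The 6 libraries were 3 from larvae with a foxn3 transgene, labelled as liver overexpression of this forkhead transcription factor gene, and 3 from wild-type siblings. The labels do not name the promoter of the transgene, and are silent on pooling of livers and on whether replicate libraries stem from different clutches. Any spread between libraries may therefore be technical. The family was picked because crybb1l3, a beta B member, is 1 of 6 genes on the authors' deposited short list for the comparison of transgenic with wild-type livers. That comparison is given below as a description, with no test of the members.

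Alpha crystallins are small heat shock proteins that act as chaperones and keep other lens proteins in solution. Beta and gamma crystallins share a fold built of Greek key motifs, beta crystallins joining into oligomers and gamma crystallins remaining monomers. The gamma M crystallins, rich in methionine, are a large group of the fish lens. Liver is not a tissue in which these genes are known to be abundant.

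Total counts ran from 7732478 to 12550954 per library. foxn3 had 304, 246 and 322 counts in wild-type libraries 1 to 3 and 1983, 2206 and 2540 in the transgenic libraries 1 to 3, so it went with the labels in all 6. The liver label was checked on hepatocyte markers: the 20 genes matched to that list made up 9.63 to 11.0% of a library's counts, with 327807 to 541333 counts of the transferrin gene tfa alone. Over all 19573 genes that passed the filter on low counts, edgeR's quasi-likelihood test called 0 at a Benjamini-Hochberg adjusted p of 0.05 (0%). At an unadjusted p under 0.05 it had 441 genes, limma-voom called 0, and DESeq2 called 1, foxn3. The edgeR test thus did not call foxn3 itself, so its count of 0 does not show that other genes are unchanged.

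The family as a whole stood near the bottom of the count range of the table, with 1 exception. The 18 members other than crybb1l3 had 0 to 39 counts in any library. Summed, these 18 held 168, 172 and 72 counts in wild-type libraries 1 to 3 and 249, 125 and 167 in the transgenic libraries 1 to 3. Counts this low carry a large counting error of their own. The median FPKM (counts per kilobase of exon and scaled to the library total, as deposited) of the 18 lay between 0.344 and 0.917 per library, where the median of all genes of the table lay between 2.17 and 3.05. The median member was thus above 10.3 to 16.6% of the genes of the table in its library. The table leaves out 10508 identifiers that the authors set apart for fewer than 10 counts. These are therefore not shares of all identifiers. crybb1l3 was the member of highest FPKM in each of the 6 libraries.

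**Figure D1:**
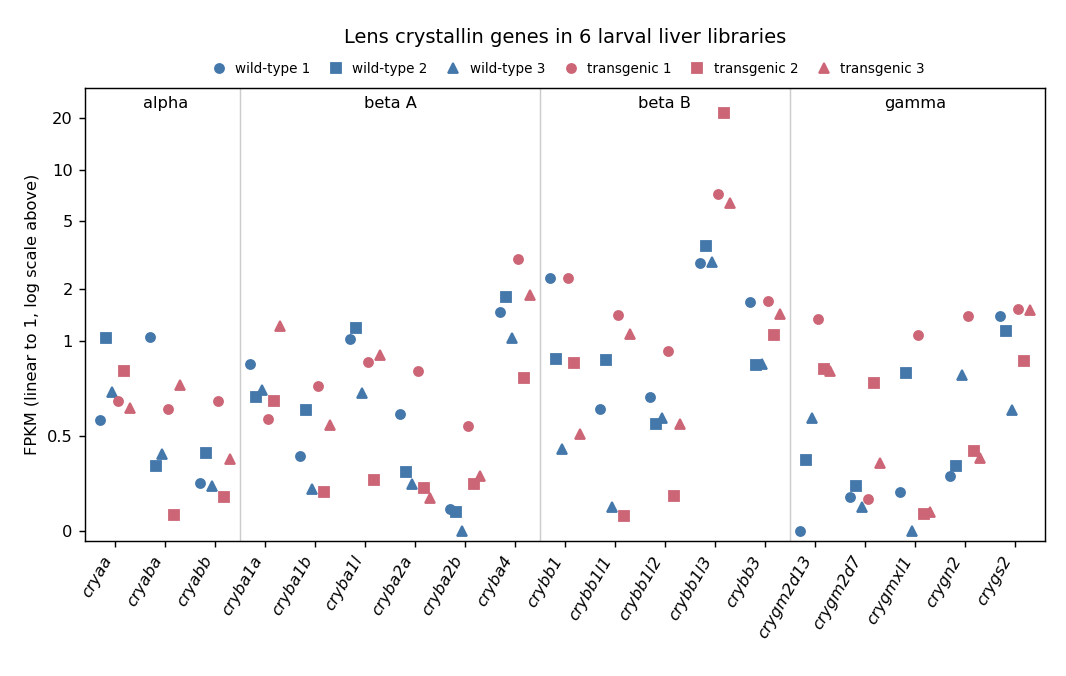
FPKM of the 19 lens crystallin genes (x axis, by class) in each library, on a y axis that is linear up to 1 and logarithmic above; each point is 1 library. crybb1l3 stands at 2.84 to 3.60 in the wild-type and at 6.38 to 21.5 in the transgenic libraries, while most other members lie under 2.

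crybb1l3 (ENSDARG00000007655) lies on chromosome 15, 27445035 to 27453287, on the plus strand of Zv9. It had 40, 57 and 29 counts in wild-type libraries 1 to 3 and 106, 349 and 90 in the transgenic libraries 1 to 3. Per length this was 2.84, 3.60 and 2.90 FPKM in the wild-type and 7.21, 21.5 and 6.38 FPKM in the transgenic libraries. Each transgenic library lay above each wild-type one, and transgenic library 2 lay far above the rest. The wild-type libraries were close to each other, the highest being 1.23 times the lowest in CPM (the count relative to the TMM-scaled library total). Transgenic libraries 1 and 3 were 2.27 and 1.97 times the wild-type mean in CPM, and transgenic library 2 was 8.32 times that mean. As mean CPM the gene stood at 3.95 ± 0.411 in the wild-type and 16.5 ± 14.1 in the transgenic livers (SD, n = 3 each), or 8.37 in the transgenic libraries without library 2. The log2 fold change from edgeR, transgenic minus wild type, was 2.06 ± 0.52 (SE) and 1.07 without transgenic library 2. In bulk RNA a change in the number of cells that hold a transcript and a change in its level per cell cannot be told apart. The authors' deposited table gives crybb1l3 a log2 ratio of 1.2 and an adjusted p of 0.063. DESeq2 as run here gave a log2 fold change of 2.07 for this gene. The deposited ratio and the fold changes given here are thus not to be compared in size. crybb1l3 is the only 1 of 19 members with a deposited adjusted p under 0.1, a limit that 0.0278% of all genes met. The family was picked because crybb1l3 is on the authors' short list from this same comparison. The count of 1 was thus fixed by that choice, and nothing is read from it beside the share of all genes.

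crybb1l3 took 19.2, 24.9 and 28.7% of the family's counts in wild-type libraries 1 to 3. In transgenic libraries 1 to 3 it took 29.9, 73.6 and 35.0%. Its lead over the next member was narrow in wild-type library 1, where its FPKM was 1.21 times that of crybb1, and was 1.98 and 2.78 times that of cryba4 in wild-type libraries 2 and 3. In transgenic libraries 1 and 3 its FPKM was 2.39 and 3.45 times that of cryba4, and in transgenic library 2 it was 19.8 times that of crybb3. Within the libraries, crybb1l3 was above 50.8 to 54.4% of the genes of the table in the wild-type libraries. In transgenic libraries 1 to 3 it was above 73.4, 89.6 and 69.1%. Among the genes of the table, which leaves out the low-count identifiers, it was thus of middling level in wild-type livers. The median of the other members was lower. crybb1 came close to it in wild-type library 1, at 2.34 FPKM beside 2.84.

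The other 4 beta B genes, which encode subunits of the beta crystallin oligomers, stayed at low counts in both groups. crybb1 had 23, 10 and 3 counts in the wild-type and 24, 10 and 5 in the transgenic libraries 1 to 3. crybb3 had 19, 11 and 7 counts in the wild-type and 20, 14 and 16 in the transgenic libraries. The groups overlapped for both genes. crybb1l1, a close namesake of crybb1l3, had 7, 11 and 1 counts in the wild-type and 16, 1 and 12 in the transgenic libraries. crybb1l2, the other one, had 10, 9 and 6 counts in the wild-type and 14, 3 and 8 in the transgenic libraries. Neither had a high level in transgenic library 2, the highest for crybb1l3: with 1 and 3 counts it was the lowest of all 6 in CPM for crybb1l1 and crybb1l2. Ranks at so few counts are uncertain, and crybb1l1 had 1 count in wild-type library 3 as well. Together these 4 genes held 3.57 ± 1.54 CPM in the wild-type and 4.14 ± 1.88 CPM in the transgenic livers (SD, n = 3 each), and their libraries overlapped.

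**Figure D2:**
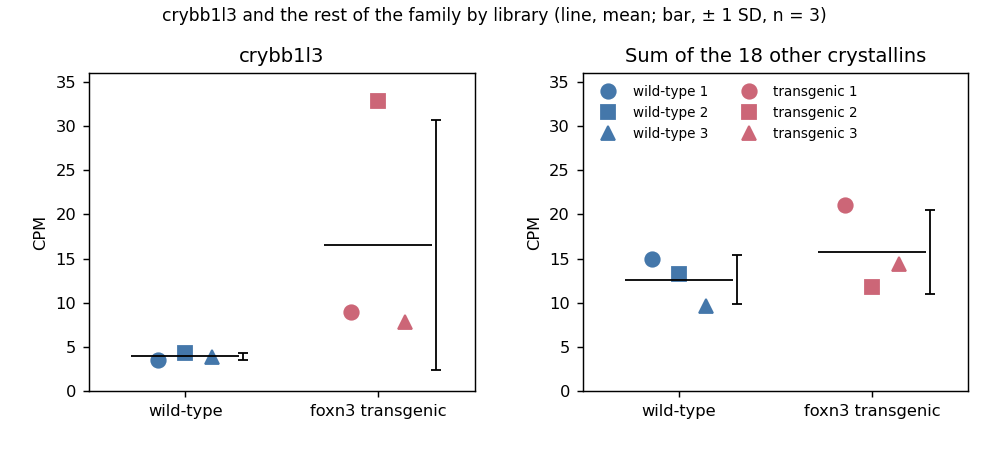
CPM of crybb1l3 (left) and summed CPM of the 18 other crystallins (right) in each library, by group; lines are means and bars ± 1 SD of 3 libraries. The groups are apart for crybb1l3, with transgenic library 2 at 32.8, and overlap for the sum of the others, where that library is at 11.8.

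The alpha crystallins, chaperones of the lens of which alpha B forms are known from muscle in mammals too, were equally low. cryaa had 9, 18 and 8 counts in the wild-type and 11, 15 and 10 in the transgenic libraries 1 to 3. cryaba had 11, 4 and 3 counts in the wild-type and 7, 1 and 8 in the transgenic libraries. cryabb had 6, 11 and 4 counts in the wild-type and 17, 5 and 9 in the transgenic libraries. The groups overlapped for each of the 3. Their summed CPM was 2.29 ± 0.267 in the wild-type and 2.42 ± 0.496 in the transgenic livers (SD, n = 3 each), a difference smaller than the spread.

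Of the beta A genes, whose products pair with beta B proteins, cryba4 had the highest FPKM, 1.45 ± 0.388 in the wild-type and 1.89 ± 1.11 in the transgenic livers (SD, n = 3 each). Its counts were 8, 11 and 4 in the wild-type and 17, 5 and 10 in the transgenic libraries 1 to 3. These values are spread over both groups. cryba1a had 10, 9 and 6 counts in the wild-type and 7, 9 and 14 in the transgenic libraries, and cryba1b 5, 9 and 2 against 10, 3 and 7. cryba1l had 10, 13 and 5 counts in the wild-type and 9, 3 and 9 in the transgenic libraries, with the lowest CPM in transgenic library 2. cryba2a had 2 to 7 counts in the wild-type and 2 to 10 in the transgenic libraries. cryba2b, given in full because its groups did not overlap, was listed with 2, 2 and 0 counts in the wild-type and 10, 5 and 5 in the transgenic libraries. A count of 0 in wild-type library 3 allows up to 0.401 CPM (3 counts, counting error only), close to the 0.432 CPM of transgenic library 3. The 6 genes summed to 3.33 ± 0.681 CPM in the wild-type and 4.01 ± 1.34 CPM in the transgenic livers (SD, n = 3 each).

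Among the gamma crystallins crygs2 had the most counts, 34, 31 and 11 in the wild-type and 39, 25 and 37 in the transgenic libraries 1 to 3. The reference table of names gives this identifier the symbol lcmt2, a methyltransferase gene, and the model spans 28753824 to 28767636 on chromosome 9, so its counts may include reads of another gene. crygn2, a gamma N gene, had 3, 4 and 6 counts in the wild-type and 15, 5 and 4 in the transgenic libraries. Of the gamma M type, crygm2d13 had 0, 3 and 3 counts in the wild-type and 10, 7 and 6 in the transgenic libraries. The groups did not overlap for crygm2d13, and its 0 in wild-type library 1 allows up to 0.268 CPM. crygm2d7 had 1 to 3 counts in the wild-type and 2 to 10 in the transgenic libraries, and crygmxl1 had 0 to 9 and 1 to 11. These low gamma genes also have close copies in the genome, and the labels do not say how reads that match several copies were counted, so their single counts are uncertain.

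Most of the gamma M group did not reach the count table at all. A reference table of names lists 57 zebrafish identifiers under a crystallin symbol of these classes. Of these, 17 were members, 31 were on the authors' list of identifiers with fewer than 10 counts, and 7 were in neither place. The 31 comprised 26 gamma M genes and 5 other crystallins. The remaining 2 were in the count table under other names, cryba1l2 as zgc:101859 and crygm2d16 as ch211-55g3.6. zgc:101859 had 13, 7 and 3 counts in the wild-type and 13, 5 and 7 in the transgenic libraries 1 to 3, and ch211-55g3.6 had 1, 5 and 0 against 13, 1 and 8. Both were as low as the members. 2 members had no crystallin symbol in the reference table: crygs2, as described, and cryabb, which had none.

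Set side by side, the members' directions were mixed in size and mostly rested on a few counts. Only 6 of 19 members passed the filter on low counts: crybb1l3, crybb1l1, crybb3, cryba4, cryaa and crygs2. Their log2 fold changes, transgenic minus wild type, had a median of 0.36, beside 0.00 over all genes tested, and 5 of 6 were above 0. Apart from crybb1l3 they were 0.53 ± 0.77 for crybb1l1, 0.38 ± 0.50 for cryba4, 0.34 ± 0.33 for crygs2, 0.33 ± 0.39 for crybb3 and -0.04 ± 0.41 for cryaa (SE). Each of these differences was about the size of its standard error or smaller. Without the filter the median over all 19 was 0.33, with 15 above 0, where 50.7% of all genes were above 0. The groups did not overlap for 3 of 19 members, crybb1l3, cryba2b and crygm2d13, all higher in the transgenic livers, beside 3.31% of all genes in the table, and for 0 of 19 in the lower direction, beside 3.14%. Of the 6 that passed the filter 1 did not overlap, crybb1l3, beside 3.31% of the genes tested. Nothing is read from these counts, since the family was picked from this comparison.

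Summed over all 19 members, the level was 16.6 ± 2.69 CPM in the wild-type and 32.3 ± 11.4 CPM in the transgenic livers (SD, n = 3 each), a ratio of 1.95. Without crybb1l3 the sums were 12.6 ± 2.73 and 15.7 ± 4.77 CPM, a ratio of 1.25, and the libraries of the groups overlapped. Of the 18 other members, 14 had a higher and 4 a lower mean in the transgenic livers. The library that was highest differed from that of crybb1l3: 11 of the 18 were highest in transgenic library 1, 2 in transgenic library 2, while 6 were lowest in transgenic library 2 and 6 in wild-type library 3. Without transgenic library 1 the ratio of the 18 was 1.04. crybb1l3 thus set the family's sum in transgenic library 2 (44.6 CPM, of which 11.8 came from the others), while the others set it in wild-type libraries.

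Several crystallin genes lie back to back on opposite strands of the Zv9 assembly, a beta A gene beside a beta B gene. On chromosome 15, cryba1a has its 5′ end at 27443211 on the minus strand, and crybb1l3 starts 1824 bp from it on the plus strand, so that the pair is divergent. crybb1l1 and cryba1l lie in this way on chromosome 14 (2847 bp apart), zgc:101859 and crybb1l2 on chromosome 1 (4953 bp apart), and crybb1 and cryba4 on chromosome 10 (15142 bp apart). In the last 3 pairs both partners had similar low counts, between 1 and 24 per library. In the pair on chromosome 15 cryba1a had 6 to 14 counts per library and crybb1l3 29 to 349. The higher level in transgenic library 2 was seen on the side of crybb1l3, with 349 counts, and cryba1a had 9 there.

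**Figure D3:**
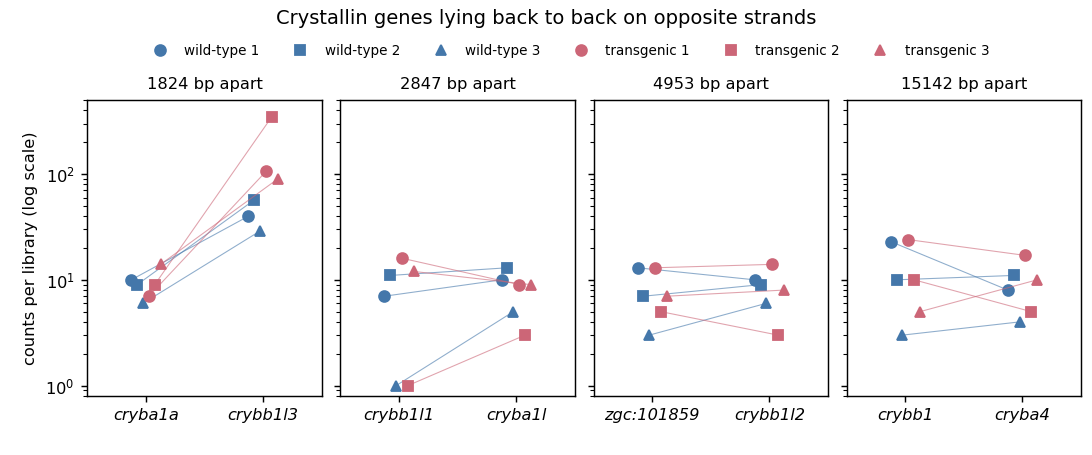
Counts per library (y axis, logarithmic) of the partners of 4 pairs of adjacent crystallin genes on opposite strands, with the distance between them above each panel; lines join the partners within 1 library. In 3 pairs both partners lie between 1 and 24 counts, while crybb1l3 lies at 29 to 349 beside 6 to 14 for cryba1a.

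The nearest genes around this pair were also read, a choice made after the values of crybb1l3 were seen. UNC119, which encodes a carrier of lipid-modified proteins known from photoreceptors, begins 2462 bp past crybb1l3 on the same strand. It had 23, 18 and 6 counts in the wild-type and 30, 33 and 26 in the transgenic libraries 1 to 3, a log2 fold change of 0.85 ± 0.37 (SE), and its groups did not overlap. dhrs13, a dehydrogenase gene on the far side of cryba1a, had 221, 215 and 153 counts in the wild-type and 325, 258 and 289 in the transgenic libraries, a log2 fold change of 0.44 ± 0.17, and its groups did not overlap either. For neither gene was transgenic library 2 far from the other transgenic libraries. Groups apart with the transgenic higher were seen for 3.31% of all genes tested, and UNC119 had as few as 6 counts in a library. foxn1, a forkhead gene that lies 25279 bp past crybb1l3, had 22, 25 and 7 counts in the wild-type and 33, 8 and 13 in the transgenic libraries, and these overlapped. slc46a1, a folate transporter gene further on, and lhx1a, a LIM homeobox gene on the other side, overlapped between groups as well.

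Other genes of the eye were read from marker lists to see whether they stood at the level of the crystallins. These lists were chosen with earlier results of these data known. In the lens fibre list 16 of 27 names were matched, and 14 genes passed the filter, 9 with higher and 5 with lower log2 fold changes. Besides sparc and b3gnt5a, which other tissues express too, the 14 lens fibre genes had fewer than 100 counts in each library and summed to 20.7 to 29.6 CPM in the wild-type and 22.6 to 30.9 CPM in the transgenic libraries. mipa, a water channel of lens fibres, had 41, 33 and 21 counts in the wild-type and 41, 24 and 42 in the transgenic libraries 1 to 3. Its paralog mipb had 8, 13 and 5 counts in the wild-type and 14, 7 and 10 in the transgenic libraries. The groups overlapped for both, and transgenic library 2 held the lowest CPM of mipa. In this list the groups did not overlap for lgsn, which was higher in the transgenic libraries. They did not overlap either for b3gnt5a and lim2.5, which were lower. Of all genes in the table, 3.31% were apart with the transgenic higher and 3.14% with it lower. lgsn had 8, 15 and 8 counts in the wild-type and 16, 13 and 15 in the transgenic libraries. In the lens transcription factor list 13 of 18 names were matched to 14 genes, of which 5 had higher and 9 lower log2 fold changes, and foxe3, a lens regulator, had 18, 10 and 3 counts in the wild-type and 17, 3 and 16 in the transgenic libraries. By edgeR 0 genes of either list passed in either direction. At an unadjusted p under 0.05, 2 lens fibre genes were lower (b3gnt5a and lim2.5), 0 were higher, and 0 lens transcription factors were in either direction, beside 2.25% of all genes.

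Photoreceptor genes were at similarly low levels. The 34 of 46 names matched gave 36 genes, of which 25 passed the filter, with 5 higher and 20 lower log2 fold changes. Of these genes 0 were called by edgeR, and 1 higher and 0 lower were at an unadjusted p under 0.05, beside 2.25% of all genes tested. The sum of the 36 genes was 82.2, 49.4 and 38.8 CPM in the wild-type and 73.9, 45.6 and 40.4 CPM in the transgenic libraries 1 to 3. All 36 had fewer than 100 counts in each library, and none was at 0 in any. sag (ENSDARG00000038378), a visual arrestin gene, had 27, 26 and 15 counts in the wild-type and 36, 81 and 33 in the transgenic libraries. Transgenic library 2 was the highest for sag, and the groups did not overlap. It was the only gene of the 36 with the transgenic libraries all higher, as 3.31% of all genes tested were. Its log2 fold change was 1.06 ± 0.41 (SE). The second arrestin entry of the table, SAG, had 28, 21 and 11 counts in the wild-type and 27, 13 and 14 in the transgenic libraries, with overlap. rho, the rod opsin gene, had 83, 6 and 3 counts in the wild-type and 26, 3 and 7 in the transgenic libraries, the highest being wild-type library 1. Pigment cell genes, 15 without the plasma protein gene ttr, summed to 40.4 to 57.8 CPM in the wild-type and 42.0 to 54.0 CPM in the transgenic libraries, 5 with higher and 10 with lower log2 fold changes. With ttr, which is also on the hepatocyte list, the pigment sum was highest in transgenic library 2, at 1936 CPM.

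**Figure D4:**
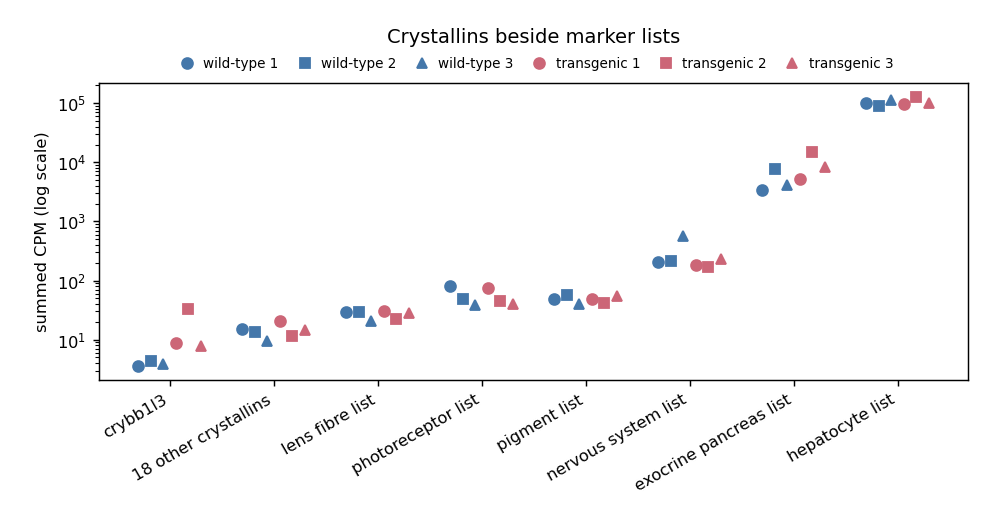
Summed CPM (y axis, logarithmic) of crybb1l3, of the 18 other crystallins and of 6 marker lists in each library; the lens fibre list is shown without sparc and b3gnt5a and the pigment list without ttr. Transgenic library 2 is highest for crybb1l3, at 32.8, and for the exocrine pancreas and hepatocyte lists, and is not the highest for the eye lists as shown.

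Transgenic library 2 also had the highest sum of the exocrine pancreas list. The 19 exocrine pancreas genes summed to 3467, 7560 and 4189 CPM in the wild-type and 5243, 14798 and 8237 CPM in the transgenic libraries 1 to 3. All 19 had higher log2 fold changes in the transgenic livers. By edgeR 0 of them were called, and 5 were at an unadjusted p under 0.05, beside 2.25% of all genes tested. Genes of this list largely varied together between libraries, so they are not separate results. From highest to lowest, the exocrine sums ran transgenic 2, transgenic 3, wild-type 2, transgenic 1, wild-type 3 and wild-type 1. For crybb1l3 the CPM ran transgenic 2, 1 and 3, then wild-type 2, 3 and 1. The orders differed only in the place of transgenic library 1, at 8.95 CPM of crybb1l3 against 4.39 in wild-type library 2. Whether pancreatic RNA plays a part in the crybb1l3 values was not tested. Nervous system markers summed to 203, 217 and 558 CPM in the wild-type and 182, 171 and 227 CPM in the transgenic libraries, with wild-type library 3 highest and transgenic library 2 lowest. Of these markers 22 of 22 had lower log2 fold changes, 0 were called by edgeR and 3 were at an unadjusted p under 0.05, beside 2.25% of all genes tested. Skeletal muscle markers summed to 1343 to 4548 CPM in the wild-type and 1589 to 2626 CPM in the transgenic libraries, and skin and cornea markers to 692 to 2310 and 945 to 1149 CPM, with wild-type library 2 highest for both. Transgenic library 2 also had the lowest TMM factor (0.848, the others being at 0.967 to 1.07), so its CPM is scaled up while its FPKM is not, and crybb1l3 was at 21.5 FPKM there.

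Genes whose level followed the family's summed CPM most closely over the 6 libraries were dkey-111e8.1 (Pearson r of log2 CPM 0.99), g6pcb (0.97), bmpr1aa (0.97), gbp1 (0.97), sas (0.96), an open reading frame named only by its position on chromosome 14 (0.96), CABZ01068600.1 (0.96), telo2 (0.96), uevld (0.96) and SRSF2 (0.96). They are the 10 highest of 19567 genes outside the family, so high values at 6 points are to be found among so many, and the points share the depth and scaling of each library. For crybb1l3 alone the highest was CABZ01068600.1 (0.99), and sag, the arrestin gene, was among the first 10 (0.97). 78 genes had an r over 0.9 with crybb1l3. CABZ01068600.1 had 49, 55 and 31 counts in the wild-type and 64, 80 and 61 in the transgenic libraries 1 to 3, a log2 fold change of 0.51, and that of sag was 1.06. Both genes are named here for following crybb1l3, so the direction of these fold changes was fixed by that choice.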

How the data were processed

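Total RNA of larval liver was made into stranded libraries, sequenced from 1 end over 50 bp, per the labels' protocols. Novoalign, the Zv9 assembly and DESeq2 are named in the submitters' processing notes, without versions. The authors deposited unnormalized counts of alignments that overlap a gene by at least 1 bp, FPKM scaled to exon length and library total, and regularized log2 counts (not used here), per the file headers. Their deposited log2 ratio is DESeq2's, and their deposited score, the negative log10 of the adjusted p times 10, was turned back into a p-value here. The deposited ratio of crybb1l3, 1.2, lies nearer 0 than the 2.07 of DESeq2 as run here. Identifiers with fewer than 10 counts were set apart by the authors, and 0 of these 10508 are in the table. Whether counting used strand is not stated.

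Counts were fitted in R 4.3.3 with edgeR 4.0.16 (TMM, filterByExpr by group, quasi-likelihood test, no covariate, Benjamini-Hochberg over 19573 genes, threshold 0.05), with DESeq2 1.42.0 and limma-voom (limma 3.58.1) as alternatives. The fit was tested on simulated data. A standard error is the log2 fold change over the root of F. CPM uses TMM-scaled totals. For correlations log2 CPM of the genes compared has a prior count of 2, and that of the family sum and of crybb1l3 has none. The upper limits given for counts of 0 cover counting error only. Values in full are given for crybb1l3, the alpha crystallins and the members of highest mean CPM, 15 in all, and others by range or counts. Members, lists and the rule for named genes were chosen with earlier results of these data known.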

Additional observations from a re-analysis of the deposited data

How the results depend on the processing

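The number of genes called over the whole table was 0 with RLE factors, unscaled totals, no filter and limma-voom. It was 1, foxn3, with DESeq2 and with the replicate number as a block, and 0 to 1 when each library was left out. The titles number libraries 1 to 3 in both groups. Deviations of same-numbered libraries correlated at 0.34, -0.11 and 0.16, and not every library correlated best with its own number, so the numbers were not taken as pairs. This does not settle whether they mark pairs. From highest to lowest, exocrine sums ran 2, 3, 1 in both groups and photoreceptor sums 1, 2, 3. The sums of the other marker lists did not keep the same order in both groups. With the block crybb1l3 was at 1.80 and 637 genes had an unadjusted p under 0.05. The log2 fold change of crybb1l3 was 1.71 to 2.07 over the other alternatives and 1.07 to 2.402 without single libraries, lowest without transgenic library 2. The median of the tested members was 0.16 to 0.58 without single libraries, over 6 to 11 members. The ratio of the family's sum was 1.95, 1.58 to 2.25 without single libraries, and 1.25 without crybb1l3, which holds the most counts. For the 18 others, looked at after the data were seen, it was 1.04 to 1.40 without single libraries. The sign turned under some alternatives for cryaa (3 of 12), crybb1 (2 of 5) and crybb1l2 (1 of 5). With 0 to 39 counts per library, the depth limits the 18 others. It limits the wild-type level of crybb1l3 too, at 40, 57 and 29 counts.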
